A study of Rattus norvegicus with 6 samples.

Results

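Tyrobp and Fcer1g encode the adaptors through which many receptors of microglia signal, and 10 genes of this system were followed in the rat prelimbic cortex (PL) after spared nerve injury (SNI). They were chosen by name, with earlier results of these data known. They are the adaptors Tyrobp and Fcer1g, the receptor Trem2, the kinase Syk and the phosphatases Inpp5d and Ptpn6. The others are the transcription factors Irf8 and Spi1 and the lysosomal genes Laptm5 and Ctss. The arrays measured 9 of the 10, with 11 probe sets that carry 1 of these symbols alone, out of 14217 genes with such a probe set. No probe set carried the symbol Spi1 alone or together with others, and its mRNA was not analysed here. All samples came from male Sprague-Dawley rats and were collected 14 days after surgery. In the SNI group the tibial and common peroneal branches of the left sciatic nerve were cut and the sural branch was kept, and PL was dissected from the side of the brain opposite to the injury. The samples labelled control are taken as the sham surgery of the protocol, in which the same nerves were only exposed. The labels name isoflurane as the anesthetic and the methods pentobarbital. Each group had 3 samples of total RNA, and no label says whether a sample is 1 rat or several pooled, so a p-value reflects how far these samples varied and that variation may be technical.

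Tyrobp (also called DAP12) and Fcer1g (the common gamma chain of Fc receptors) are small membrane proteins with almost no part outside the cell. Their cytoplasmic tails carry an immunoreceptor tyrosine-based activation motif (ITAM). When a partner receptor such as Trem2 or an Fc receptor binds its ligand, Src family kinases phosphorylate the ITAM, the kinase Syk docks on it, and phospholipase C, PI3 kinase and the Vav proteins follow. Inpp5d (SHIP1) and Ptpn6 (SHP-1) are phosphatases that restrain this signal. In the healthy brain these genes are expressed mainly by microglia, the resident macrophages, under the control of the myeloid factors PU.1, which Spi1 encodes, and Irf8.

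The deposited values are log2 values less the median of the probe set, so a value of 0 is the middle of the 6 samples. Differences between the groups can be read from them, but not the level of an mRNA, and neither the labelled tissue nor the order of the genes by abundance could be checked. A difference is given as SNI minus control on this log2 scale, with the standard error (SE) from limma, a linear model that shares the estimate of the spread over all genes. The value of a gene is the mean of its probe sets.

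The adaptors, both lysosomal genes and Irf8 were higher in the SNI group, while Trem2, Syk and both phosphatases had unadjusted p-values above 0.05. At an unadjusted p under 0.05, 5 of the 9 measured members were higher (Tyrobp, Fcer1g, Irf8, Laptm5 and Ctss) and none was lower. Over all genes 3.96% were higher and 9.19% lower at this threshold. The groups did not overlap for the same 5 members, with every SNI sample above every control sample, against 6.39% of all genes. The groups did not overlap in the opposite direction for 1 member, Inpp5d, against 13.7% of all genes. The median difference of the 9 members was 0.17, and that of all genes was −0.01. Because the members were chosen with earlier results known, these shares do not test the members as a set. The differences were small, and the linear ratio of SNI over control of the 5 higher members lay between 1.12 and 1.21. No member passed Benjamini-Hochberg adjustment over all genes with limma. Among all genes 0 of 14217 had an adjusted p under 0.05, while 1870 had an unadjusted p under 0.05 with limma and 1787 with the unpaired test that the study's methods name, by which also 0 passed adjustment. In the fit over 31042 probe sets, 10 had a limma adjusted p under 0.05, of which 1 carried a single gene symbol and 0 belonged to a member. With 3 samples a group, the smallest two-sided p of an exact permutation test is 0.1.

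**Figure D1:**
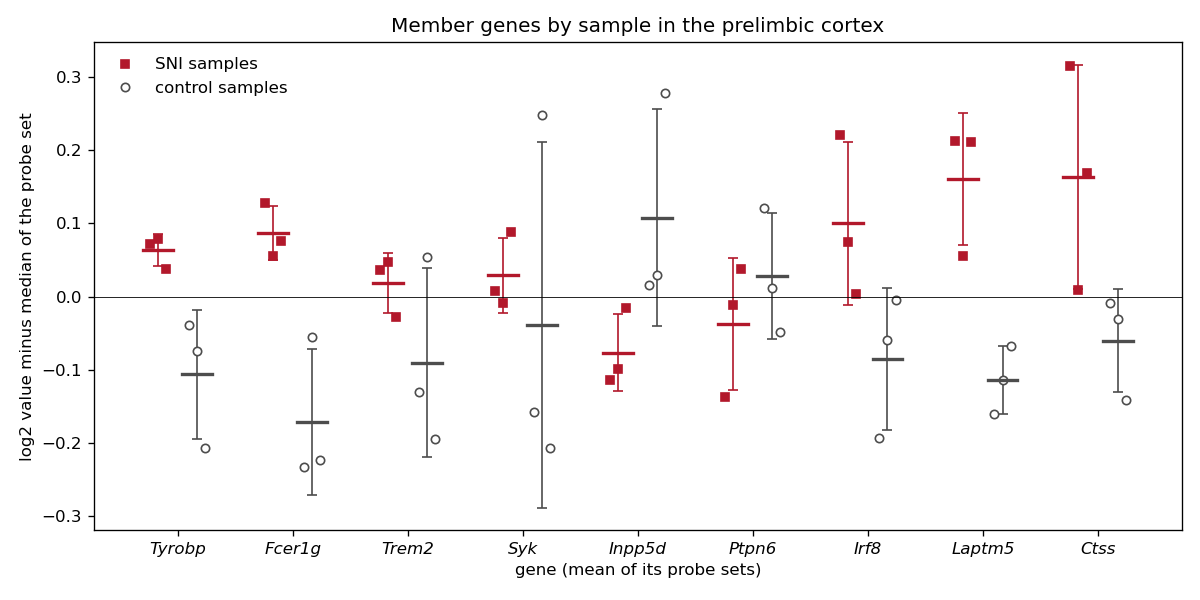
Log2 value of each sample relative to the median of the probe set (y axis) for the 9 measured genes (x axis), with filled squares for the 3 SNI samples and open circles for the 3 control samples, each group running from replicate 1 on the left to replicate 3. Short bars give means and error bars SDs; for Tyrobp, Fcer1g, Irf8, Laptm5 and Ctss all squares lie above all circles, and for Inpp5d all lie below them.

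Both ITAM adaptors were higher in the SNI group. Tyrobp had values of 0.07, 0.08 and 0.04 in SNI samples 1, 2 and 3, against −0.04, −0.07 and −0.21 in control samples 1, 2 and 3. The groups did not overlap, the SNI samples lay close together, and control sample 3 was the lowest. SNI samples averaged 0.06 ± 0.02 and control samples −0.11 ± 0.09 (SD, n = 3 each). Its log2 difference was 0.17 (SE 0.06, 95% confidence interval 0.03 to 0.31, limma adjusted p = 0.309). This difference did not hold an unadjusted p under 0.05 when control sample 3 was left out (0.12, unadjusted p = 0.0802), nor without SNI sample 1 (0.16, unadjusted p = 0.0661), SNI sample 2 (0.16, unadjusted p = 0.0712) or SNI sample 3 (0.18, unadjusted p = 0.0501).
Fcer1g had values of 0.13, 0.06 and 0.08 in SNI samples 1, 2 and 3, against −0.23, −0.06 and −0.22 in the control samples. Control sample 2 lay nearest to the SNI samples, and controls 1 and 3 lay well below. The log2 difference was 0.26 (SE 0.07, 95% confidence interval 0.11 to 0.41, limma adjusted p = 0.216), and it kept an unadjusted p under 0.05 without any single sample, with values between 0.23 and 0.31. Without control samples 1 and 3 together, an alternative added after the data were seen, it was 0.14 (unadjusted p = 0.0714). In that fit the lone control sample is assumed to vary like the SNI samples.

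Trem2, a receptor for lipids and apolipoproteins that signals through Tyrobp, was read by 2 probe sets that differed. The first had values of 0.05, 0.03 and 0.05 in the SNI samples, against −0.18, −0.03 and −0.36 in the control samples, a difference of 0.23 (SE 0.09, limma adjusted p = 0.327). The second had values of 0.03, 0.07 and −0.10 in the SNI samples, against −0.08, 0.13 and −0.03 in the control samples, a difference of −0.01 (SE 0.08, limma adjusted p = 0.977). The groups did not overlap on the first and overlapped on the second, where control sample 2 was the highest and SNI sample 3 the lowest. Over both, Trem2 was at 0.11 (SE 0.07, 95% confidence interval −0.06 to 0.28, limma adjusted p = 0.584). Without control sample 2 it was at 0.18, with an unadjusted p = 0.0137.
Syk, the kinase that docks on phosphorylated ITAMs, varied most among the control samples. Its values were 0.01, −0.01 and 0.09 in the SNI samples, against −0.16, 0.25 and −0.21 in the control samples. The SNI samples lay between control sample 2 and the other controls, so no direction could be read. The SD was 0.05 for SNI samples and 0.25 for control samples, and the log2 difference was 0.07 (SE 0.12, 95% confidence interval −0.20 to 0.33, limma adjusted p = 0.850). Syk followed control sample 2, since the difference was 0.21 without it (unadjusted p = 0.00739), −0.02 without control sample 3 and −0.22 without control samples 1 and 3 (unadjusted p = 0.0196).

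Neither phosphatase passed an unadjusted p under 0.05. Inpp5d, a lipid phosphatase that removes the product of PI3 kinase, had values of −0.11, −0.10 and −0.02 in the SNI samples, against 0.02, 0.03 and 0.28 in the control samples. All SNI samples lay below all control samples, and control sample 3 was the highest by far. The log2 difference was −0.18 (SE 0.08, 95% confidence interval −0.37 to 0.0019, limma adjusted p = 0.383), with an unadjusted p = 0.0518. It was −0.10 without control sample 3, and had an unadjusted p = 0.0305 without control sample 1 and unadjusted p = 0.0349 without control sample 2. With quantile normalization repeated it had unadjusted p = 0.0449, and with the replicate number as a block unadjusted p = 0.0330.
Ptpn6, a tyrosine phosphatase recruited by inhibitory receptors, had values of −0.14, −0.01 and 0.04 in the SNI samples, against 0.12, 0.01 and −0.05 in the control samples. The groups overlapped, and the log2 difference was −0.07 (SE 0.07, 95% confidence interval −0.23 to 0.10, limma adjusted p = 0.738).

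Irf8, a transcription factor needed for microglia development, had values of 0.22, 0.07 and 0.004 in the SNI samples, against −0.19, −0.06 and −0.004 in the control samples. The groups did not overlap, but SNI sample 3 and control sample 3 lay next to each other. The log2 difference was 0.19 (SE 0.08, 95% confidence interval 0.01 to 0.36, limma adjusted p = 0.360). The unadjusted p was 0.0438 among genes and 0.0523 when the same values were fitted among probe sets. It was at 0.12 without SNI sample 1 (unadjusted p = 0.161), at 0.13 without control sample 1 (unadjusted p = 0.134), at 0.20 without SNI sample 2 (unadjusted p = 0.0737) and at 0.20 without control sample 2 (unadjusted p = 0.0570). With the replicate block its limma unadjusted p = 0.0786.

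Laptm5 and Ctss, both encoding proteins of the lysosome, were among the highest members. Laptm5, a lysosomal membrane protein of hematopoietic cells, was read by 2 probe sets that went the same way. The first had values of 0.24, 0.08 and 0.23 in the SNI samples, against −0.10, −0.20 and −0.08 in the control samples. The second had values of 0.19, 0.03 and 0.20 in the SNI samples, against −0.22, −0.03 and −0.05 in the control samples. On both, SNI sample 2 was the lowest SNI sample and still lay above every control. The differences were 0.31 (SE 0.07) and 0.24 (SE 0.08), and the mean of both was 0.27 (SE 0.06, 95% confidence interval 0.13 to 0.42, limma adjusted p = 0.201). Without any single sample Laptm5 stayed between 0.25 and 0.33 with an unadjusted p under 0.05, and it also did without control samples 1 and 3 (0.27, unadjusted p = 0.0182).
Ctss, cathepsin S, a protease that microglia can also release, had values of 0.31, 0.01 and 0.17 in the SNI samples, against −0.01, −0.03 and −0.14 in the control samples. SNI sample 2 lay close to the control samples, and the SNI samples spread more widely (SD 0.15) than the control samples (SD 0.07). The log2 difference was 0.22 (SE 0.08, 95% confidence interval 0.03 to 0.42, limma adjusted p = 0.325). It was 0.15 without SNI sample 1 (unadjusted p = 0.107), 0.22 without SNI sample 3 (unadjusted p = 0.0703) and 0.18 without control sample 3 (unadjusted p = 0.0951).

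Counted by probe set, 6 of the 11 were higher at an unadjusted p under 0.05 in the fit over 31042 probe sets, against 5.60% of all probe sets. They were those of Tyrobp, Fcer1g and Ctss, both of Laptm5 and 1 of Trem2. The groups did not overlap with the SNI samples on top for 7, the same 6 and that of Irf8, against 8.35% of all probe sets. They did not overlap in the other direction for that of Inpp5d, against 11.2%. Of the 2 genes read by 2 probe sets, those of Laptm5 differed by little, while for Trem2 only 1 of the 2 departed from 0.

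**Figure D2:**
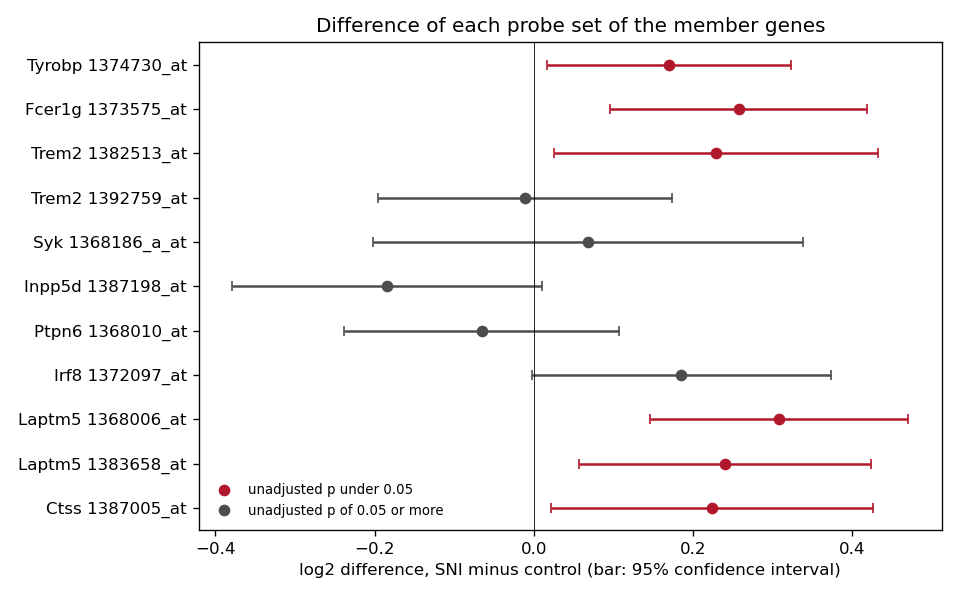
Log2 difference, SNI minus control (x axis), of each of the 11 probe sets (y axis, gene symbol and probe set name), with the 95% confidence interval from limma as the bar. Both intervals of Laptm5 lie above 0, from 0.15 to 0.47 and from 0.06 to 0.42, while those of Trem2 run from 0.03 to 0.43 and from −0.20 to 0.17.

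In the order of all 14217 genes from the highest difference down, Laptm5 stood at place 131, Fcer1g at 163, Ctss at 279, Irf8 at 464 and Tyrobp at 618. Trem2 stood at 1614 and Syk at 3016. Ptpn6 stood at 9767 and Inpp5d at 13188, in the lower part of the order. The order among the first 5 is not settled, since the confidence interval of each of Laptm5, Fcer1g, Ctss, Irf8 and Tyrobp holds the values of the other 4.

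**Figure D3:**
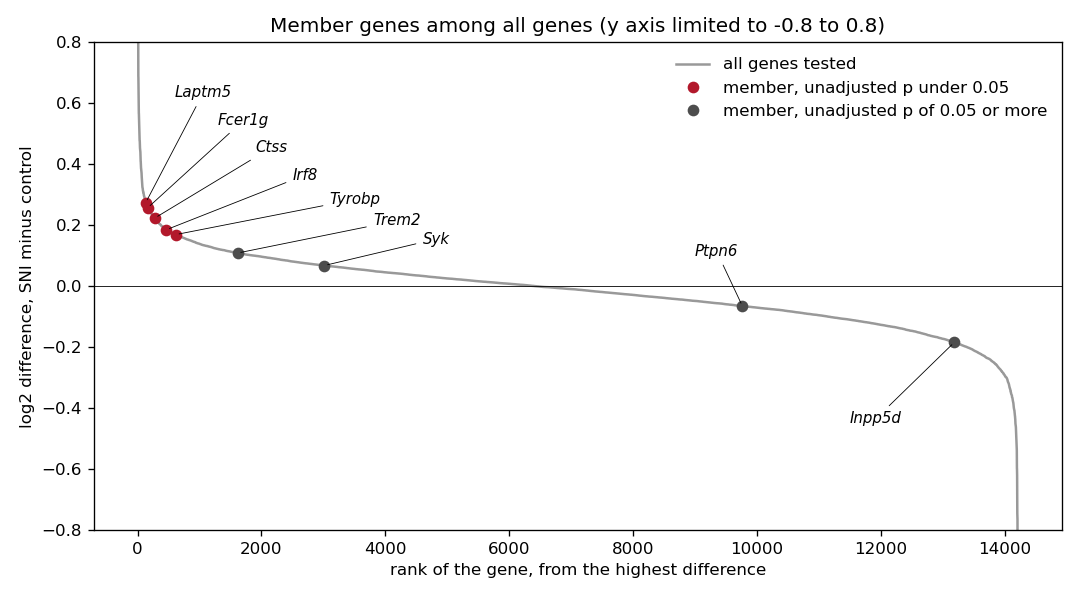
Log2 difference, SNI minus control (y axis), of all genes in order from the highest (x axis, rank), as a grey line, with the 9 measured members as points. Laptm5 at 0.27 stands at the top of the members and Inpp5d at −0.18 at the bottom; 17 genes beyond 0.8 in either direction lie outside the axis.

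The 5 higher members followed the same samples only in part. Their mean was 0.19, 0.05 and 0.10 in SNI samples 1, 2 and 3, against −0.13, −0.07 and −0.13 in control samples 1, 2 and 3. SNI sample 1 was the highest and SNI sample 2 the lowest of its group. SNI sample 1 was the highest of the 6 samples for 4 of the 9 members, and control sample 3 was the lowest for 4. Within the groups, the median SD of the members was 0.05 for SNI and 0.10 for control samples, close to the medians of all genes (0.06 for SNI and 0.09 for control samples). Control samples 1 and 3 stood apart from the other 4 on the first principal component of all probe sets, which held 35.8% of the variance. The hybridization controls, foreign transcripts spiked into the hybridization mix, also moved with the groups. The mean of their 18 probe sets was 0.19, 0.05 and 0.10 in SNI samples 1, 2 and 3, against −0.05, −0.20 and −0.22 in the control samples, a difference of 0.27. With this mean as a covariate no member had an unadjusted p under 0.05. The covariate moved with the groups, so this fit cannot separate the 2 well. The SE of Laptm5 rose from 0.06 to 0.15 and that of Tyrobp from 0.06 to 0.13. Fcer1g (0.29, unadjusted p = 0.0973), Irf8 (0.24, unadjusted p = 0.221) and Laptm5 (0.26, unadjusted p = 0.123) kept values of about the same size there, Tyrobp was at 0.05 (unadjusted p = 0.734), Ctss at −0.07 (unadjusted p = 0.682) and Inpp5d at 0.01 (unadjusted p = 0.954).

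**Figure D4:**
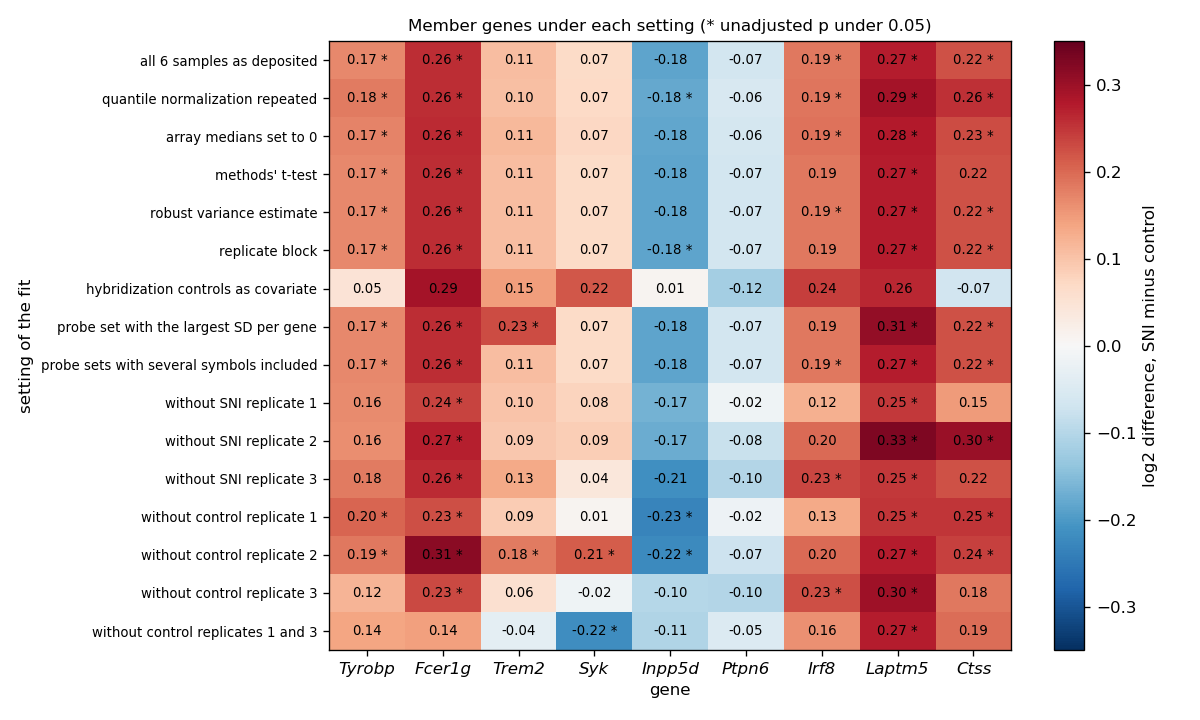
Log2 difference, SNI minus control, of each measured member (x axis) under each setting of the fit (y axis, with samples named by group and replicate), as the number and the colour of each cell. A star marks an unadjusted p under 0.05; Fcer1g and Laptm5 carry it in every setting that leaves out 1 sample, and no gene carries it with the hybridization controls as a covariate.

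PU.1, the product of Spi1, binds DNA at purine-rich sites with the core GAGGAA, and the promoters of the members were searched for these letters on both strands. The window runs from 250 bases before the transcript start to 50 after it, in RefSeq sequences of the build GRCr8. RefSeq sequences matched 7 members, and Tyrobp, Fcer1g and Spi1 are named only. The core stood in 5 of the 7, against 27.6% of 33469 promoters of the same length. Laptm5, Ctss, Trem2 and Syk held it once, Inpp5d held it 2 times, and Irf8 and Ptpn6 did not hold it. Those of both lysosomal genes and of Inpp5d are shown, because they set members with a higher value in the SNI group beside the one with the lowest. They are read in the direction of the gene, and capitals mark the core or, where it lies on the opposite strand, its reverse complement.
Laptm5, chr5:148371630-148371929, plus strand: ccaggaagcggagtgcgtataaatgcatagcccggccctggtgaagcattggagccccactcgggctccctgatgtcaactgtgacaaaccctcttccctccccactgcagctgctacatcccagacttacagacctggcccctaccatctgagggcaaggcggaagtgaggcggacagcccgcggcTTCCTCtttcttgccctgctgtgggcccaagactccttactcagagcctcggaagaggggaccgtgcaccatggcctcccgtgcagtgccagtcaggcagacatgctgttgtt
Ctss, chr2:185775146-185775445, plus strand: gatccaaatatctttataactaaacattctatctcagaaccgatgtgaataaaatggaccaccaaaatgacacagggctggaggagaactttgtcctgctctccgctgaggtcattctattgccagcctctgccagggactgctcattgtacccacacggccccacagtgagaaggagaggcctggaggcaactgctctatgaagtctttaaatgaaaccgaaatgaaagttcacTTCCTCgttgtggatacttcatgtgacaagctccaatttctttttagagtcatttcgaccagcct
Inpp5d, chr9:95735283-95735582, plus strand: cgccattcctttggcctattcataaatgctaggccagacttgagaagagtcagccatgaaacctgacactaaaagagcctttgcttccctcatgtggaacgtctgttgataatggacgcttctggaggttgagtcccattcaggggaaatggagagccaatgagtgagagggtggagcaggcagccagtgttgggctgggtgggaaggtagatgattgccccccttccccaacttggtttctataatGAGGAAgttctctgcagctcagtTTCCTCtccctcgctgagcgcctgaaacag
In Laptm5 and Ctss the match lay on the opposite strand, with its first printed base at −63 and −15 from the transcript start. In Inpp5d the first match lay at −3 on the gene's strand and the second at 21 on the opposite strand. A match is a description of the letters and not a site of binding, and members with and without it were found on either side of 0.

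Of 28 listed receptors that use these adaptors or share their pathway, 11 were measured, with a median of 0.07. Of the 11, 10 had a difference above 0, against 45.2% of all genes. Their mean, however, was 0.04, −0.01 and 0.04 in SNI samples 1, 2 and 3, against −0.19, 0.05 and −0.06 in control samples 1, 2 and 3. Control sample 2 thus lay above every SNI sample, and control sample 1 was the lowest. The only receptor of the list with an unadjusted p under 0.05 was Csf1r (9.09% of the 11, against 3.96% of all genes higher at this threshold). It is the receptor of the growth factors on which microglia depend, and was at 0.29 (SE 0.07, limma adjusted p = 0.210). Its values were 0.17, 0.11 and 0.06 in the SNI samples, against −0.06, −0.29 and −0.19 in the control samples, without overlap. The Fc receptors Fcgr1a and Fcgr3a, which pair with Fcer1g, were at 0.08 and 0.07, and the beta-glucan receptor Clec7a was at 0.16, with overlapping groups for each. Itgam and Itgb2, the chains of complement receptor CR3, were at −0.01 and 0.04, again with overlap. Csf1r and Itgam are also counted among the microglia markers below.
Of 41 listed kinases, adaptors and enzymes, 35 were measured, with a median of 0.01. Of the 35, 18 lay above 0, against 45.2% of all genes. At an unadjusted p under 0.05, 0 were higher, against 3.96% of all genes, and 4 (11.4%) were lower, near the 9.19% of all genes. The lower ones were the guanine nucleotide exchange factors Vav3 at −0.33 (SE 0.07) and Vav2 at −0.26 (SE 0.06), the phospholipase Plcg2 at −0.20 (SE 0.05) and the kinase Ptk2b at −0.22 (SE 0.09). For Vav3 the values were −0.16, −0.07 and −0.11 in the SNI samples, against 0.31, 0.28 and 0.07 in the control samples. Their limma adjusted p lay between 0.1995 and 0.332, and Vav2, Vav3 and Ptk2b are also expressed by neurons. Vav1, the form found in blood and myeloid cells, was at −0.0008 (SE 0.11), and the Src family kinase Lyn was at −0.02 (SE 0.06).
Of 31 listed phosphatases and inhibitory receptors, 23 were measured, with a median of 0.01. Inppl1 (SHIP2), the relative of Inpp5d that is expressed in many tissues, was the only one with an unadjusted p under 0.05, and it was higher, at 0.13 (SE 0.05, limma adjusted p = 0.363). That is 4.35% of the 23, near the 3.96% of all genes that were higher, while 0 were lower, against 9.19%. The pan-leukocyte phosphatase Ptprc (CD45) was at 0.06 (SE 0.08).

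Of 26 listed myeloid transcription factors, 23 were measured, with a median of 0.02. At an unadjusted p under 0.05, 2 (8.7%) were higher, against 3.96% of all genes, and 0 were lower, against 9.19%. The genes with an unadjusted p under 0.05 were Sall1, which maintains microglia identity, at 0.25 (SE 0.08, limma adjusted p = 0.250) and Bhlhe41, a repressor of the clock family, at 0.16 (SE 0.06, limma adjusted p = 0.2995). For Sall1 the values were 0.17, 0.13 and 0.03 in the SNI samples, against −0.03, −0.28 and −0.12 in the control samples, and the groups did not overlap. Runx1 was at −0.01 and Irf5 at 0.03, with overlapping groups.
Of 33 listed genes of lysosomal proteases, cystatins and the Trem2-dependent response, 32 were measured, with a median of 0.01. At an unadjusted p under 0.05, 3 (9.38%) were higher, against 3.96% of all genes, and 3 (9.38%) lower, near the 9.19% of all genes. The higher ones were the protease Ctsz at 0.17 (SE 0.06), the receptor tyrosine kinase Axl at 0.16 (SE 0.06) and Gpnmb at 0.15 (SE 0.07). The lower ones were the lipase Lpl at −0.29 (SE 0.08), the lysosomal protein Tmem106b at −0.17 (SE 0.06) and the protease inhibitor Cstb at −0.17 (SE 0.07). The proteases Ctsh (0.16), Ctsb (−0.02) and Ctsd (−0.08) and the lipid carrier Apoe (0.03) did not pass this threshold. The groups did not overlap for Ctsh, with SNI samples on top, nor for Ctsd, with SNI samples below. The values of Ctss and Ctsz were thus not those of every cathepsin. Over the 5 lists together, 7 of 124 measured genes (5.65%) were higher, against 3.96% of all genes, and 7 (5.65%) were lower, against 9.19%. None of them passed an adjusted p of 0.05 with limma.

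Most measured markers of microglia had a difference above 0, like most members. Of 16 listed markers 13 were measured, and 7 (53.8%) were higher at an unadjusted p under 0.05, against 3.96% of all genes, and 0 were lower, against 9.19%. Their median difference was 0.22. Their mean was 0.14, 0.05 and 0.07 in SNI samples 1, 2 and 3, against −0.12, −0.09 and −0.10 in control samples 1, 2 and 3. The complement subunits C1qa (0.36), C1qb (0.26) and C1qc (0.22), P2ry12 (0.39) and Tmem119 (0.26), both found on resting microglia, had no overlap of the groups. For Tmem119, SNI sample 2 (0.0009) and control sample 2 (−0.0009) lay next to each other. Gpr34 (0.35) also had an unadjusted p under 0.05, with overlapping groups, and Csf1r, given above, was another of the 7. Aif1 (0.14) and Cx3cr1 (0.18) did not pass. Of the 13, 10 had a difference above 0, against 45.2% of all genes. Olfml3 (−0.13), Gpr84 (−0.04) and Itgam (−0.01) lay below 0. These markers, too, were listed with earlier results of these data known. In tissue RNA, a larger number of cells of a type and more RNA per cell cannot be told apart.
Markers of the other cell types gave lower medians than those of microglia. Of 9 measured markers of neutrophils and monocytes, with a median of 0.03, Plac8 was at 0.50 (SE 0.15) and Ccr2 at 0.18 (SE 0.08), both with an unadjusted p under 0.05, while S100a8 and S100a9, the defining neutrophil transcripts, were at −0.03 and 0.13. Of 8 measured markers of perivascular macrophages, with a median of 0.0009, Lyve1 was at 0.17 (SE 0.07), and Cd163 and Mrc1 were at 0.16 and −0.15. None of 12 T and NK cell markers, with a median of 0.04, passed an unadjusted p under 0.05. Of 8 measured markers of platelets and red cells, with a median of 0.05, the red cell transcripts Hbb (0.49, SE 0.15) and Alas2 (0.44, SE 0.15) had an unadjusted p under 0.05, while Slc4a1 (0.05) and Ahsp (0.03), also of red cells, and the platelet genes Pf4 (−0.04) and Itga2b (−0.03) had overlapping groups. Hbb had values of 0.02, 0.69 and 0.46 in the SNI samples, against −0.23, −0.04 and −0.02 in the control samples. Here SNI sample 2 was the highest. The medians of the remaining lists were −0.13 for neurons (11 measured, 1 higher and 2 lower at an unadjusted p under 0.05), 0.09 for astrocytes (8 measured, 1 higher), −0.06 for oligodendrocytes (7 measured, 1 lower) and −0.02 for B cells (3 measured, 1 lower). Over all genes, 3.96% were higher and 9.19% lower at this threshold. Of the neuron markers, Camk2a (0.29) was the higher one and Syt1 (−0.38) and Snap25 (−0.13) the lower ones. The others were Aldoc (0.16) of astrocytes, Cldn11 (−0.33) of oligodendrocytes and Ms4a1 (−0.19) of B cells. Since levels are lost in the centring, whether any of these markers was near background could not be read. The part of these cells in the differences of the members was not tested.

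**Figure D5:**
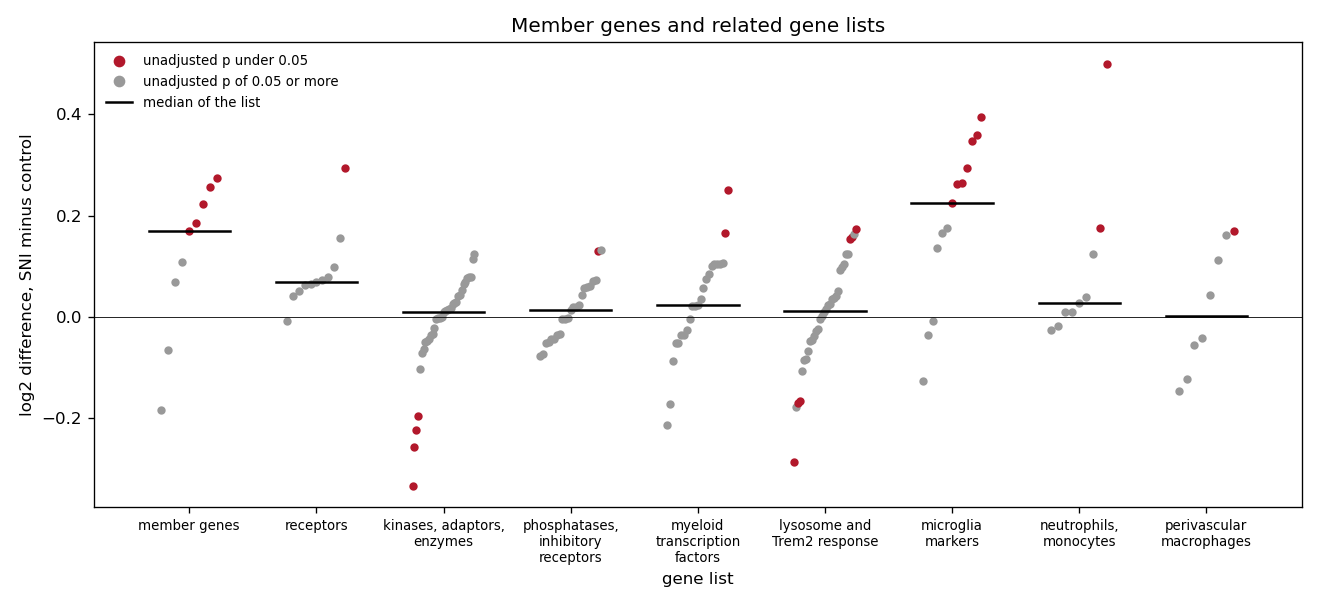
Log2 difference, SNI minus control (y axis), of each measured gene of the members, of the 5 pathway lists and of 3 lists of cell type markers (x axis), with the median as a black bar and genes with an unadjusted p under 0.05 in red. The medians are 0.17 for the members and 0.22 for microglia markers, against 0.01 for the kinases and enzymes downstream, where the 4 red genes all lie below 0.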

How the data were processed

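Affymetrix GeneChip rat genome arrays measured total RNA of the PL. The authors applied RMA correction, log2 and then quantile normalization to them. In the deposited log2 values every probe set also has a median of 0 over the samples, a centring that the methods do not mention. Versions of the authors' software: not given in the sources used here. Because of the centring, the values hold no expression level, and the number of arrays limits the precision.

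Groups came from the sample labels. After 57 array control probe sets were left out, 31042 probe sets were tested, and genes were named from the platform annotation (20826 probe sets with 1 symbol, 436 with several, 9780 with none). Each gene was the mean of its probe sets with that symbol alone. Listed genes with a newer symbol were matched through their gene ID in RefSeq. Probe sets and genes were each fitted with lmFit and eBayes of limma 3.58.1 in R 4.3.3, without covariates, two-sided, with Benjamini-Hochberg adjustment over the whole table. The fit was tested on simulated data. Plots used Python 3.11.15 and matplotlib 3.10.9.

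All members are named, and of each list the genes with an unadjusted p under 0.05, at most 5 by p. In the lists of lysosomal genes and of microglia markers all 6 and all 7 were named. Further genes of a list were named after their values were seen. The members and lists were chosen with earlier results of these data known. The alternatives were other normalizations, tests, thresholds and gene values, the replicate block, the hybridization controls as a covariate, and samples left out. The miRNA arrays were not analysed here.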

Additional observations from a re-analysis of the deposited data

Results flagged for a closer look

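The hybridization controls, probe sets outside the comparison of the genes, gave a signal above that of the control samples. The mean of the 18 probe sets was 0.11 ± 0.07 on SNI arrays and −0.16 ± 0.10 on control arrays (SD, n = 3 each), a difference of 0.27. All 18 were higher in the SNI group, 17 of them without overlap. This difference is as large as that of Laptm5, the member with the highest value. Its part in the values of the members was not tested beyond the fit with the covariate, which cannot separate it well from the group.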

How the results depend on the processing

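Of 135 values of the 9 members under the alternatives, 100 kept their direction and their side of an unadjusted p of 0.05, 23 kept the direction and lost the threshold, 7 passed it newly and 5 changed sign. All 23 losses fell on the 5 higher members, since Trem2, Syk, Inpp5d and Ptpn6 had not passed the threshold at the start. Of 15 alternatives each, Laptm5 kept direction and threshold in 14, Fcer1g in 13, Tyrobp and Ctss in 9 and Irf8 in 6. The sign changed for Syk without control sample 3 (−0.0161, in a range up to 0.2114 with 1 sample left out) and without control samples 1 and 3 (−0.2187), for Trem2 without control samples 1 and 3 (−0.0354), and with the hybridization controls as a covariate for Inpp5d (0.0101) and Ctss (−0.0663). The cause was not tested.

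The number of members that were higher at an unadjusted p under 0.05 was 5. It was 3 with the methods' t-test, which left out Ctss and Irf8, 0 with the covariate, 2 at an unadjusted p under 0.01, 0 with a linear fold change above 1.5 required as well, and 1 (Laptm5) without control samples 1 and 3, and lay between 2 and 6 with 1 sample left out. For probe sets the count was 6, with 0 under the covariate, 2 at 0.01, 0 with the fold change and 1 without control samples 1 and 3, and between 2 and 7 with 1 sample left out. The median difference was 0.12 to 0.20 with 1 sample left out. Members without overlap then numbered 5 to 7, which cannot fall below the 5 over all samples, and the count over all genes also grew, to between 1314 and 2558, against 908. The covariate, repeated quantile normalization and aligned array medians left the median at 0.15 to 0.18. The count of all genes past an adjusted p of 0.05, which was 0, was 2 with the covariate, 3 without control samples 1 and 3, and 0 to 4 with 1 sample left out.

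The deviations of same-numbered samples correlated at 0.0085, −0.0098 and −0.0686, so no pairing was seen in the values. Whether the samples were paired in the experiment cannot be read from this. With the replicate block, 4 members were higher, without Irf8, and the median difference stayed at 0.17, with 0 genes past adjustment and 5 of the 11 probe sets higher.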
